A study of Homo sapiens with 8 samples.

Results

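Caveolins and cavins are the coat proteins of caveolae, and 7 genes of this coat and its accessory proteins were followed here: CAV1, CAV2, CAVIN1, CAVIN2, CAVIN3, EHD2 and PACSIN2. They were taken by name, as every probe set of the array whose only platform gene symbol is one of the 7, which gave 17 probe sets out of 54613 and 7 genes out of 19775. The cells were MDA-MB-231, an established human triple-negative breast cancer line, cultured for 2 days in serum-supplemented medium. There were 4 arrays from cells on a soft substrate and 4 from cells on a stiff substrate, with biological replicates lettered A to D in each group. No source used here gives the stiffness or material of either substrate, and all arrays come from 1 cell line. The title places the comparison in a study of mechanical cues, the mevalonate pathway and RhoA.

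Caveolae are small flask-shaped pits of the plasma membrane, abundant in cells that bear mechanical load. Caveolins are inserted into the inner leaflet and form the scaffold of the pit, and cavins assemble on them from the cytoplasm. EHD2, an ATPase, sits at the neck and holds the pit at the surface, and PACSIN2, an F-BAR protein, helps to bend the membrane there. Caveolae flatten when membrane tension rises and so act as a reserve of membrane.

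Each value is a deposited log2 RMA level of 1 probe set on 1 array, and a difference is soft minus stiff on that scale. A probe set was called when its adjusted p in the limma fit over all 54613 probe sets was under 0.05. The background level, set from genes silent in breast cells, was 6.91. Correlations between pairs of the 8 arrays ran between 0.9932 and 0.9982. The first principal component, with 40.4% of the variance, separated soft from stiff, and the second, with 16.4%, set stiff A and B apart from stiff C and D. All 6 markers listed for this cell line, VIM and CD44 among them, lay above background (AXL was lower on soft by -0.23), as did 4 of 8 luminal breast markers (GATA3, EPCAM, KRT8 and KRT18), while ESR1, PGR, FOXA1 and CDH1 did not. None of 5 adipocyte, 5 muscle or 3 blood cell markers lay above background, and 1 of 5 fibroblast markers (COL1A1) and 1 of 5 endothelial markers did. Of the blood cell markers, CD3E and HBB are also among the silent genes that set the background level. Their place below it was thus largely fixed beforehand, which leaves PTPRC as the only separate reading. The endothelial exception was PECAM1, which was called higher on soft by 0.49 at 1559921_at, whereas CDH5, VWF, CLDN5 and KDR were below background. The mean level of the endothelial list was 5.80 to 5.87 on soft arrays and 5.63 to 5.88 on stiff arrays, and its part in the results below was not tested.

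Of the 17 probe sets, 4 were higher on soft, 1 was lower and 12 did not pass the threshold. Over all probe sets 9.27% were called, 4.64% higher and 4.63% lower. Read by the probe set with the highest mean, CAVIN3 and EHD2 rose, CAVIN2 fell, and CAV1, CAV2, CAVIN1 and PACSIN2 did not pass, so 3 of 7 genes were called where 10.3% of all genes were (4.39% higher and 5.93% lower). Of the 54613 probe sets, only 19480 lay above background, and dim ones lower the shares over all. With those 19480 tested alone, 7 of the 14 left for these genes were called, beside 32.6% of all. At a stricter adjusted p under 0.01, 1 of the 17 passed, EHD2 at 221870_at, beside 3.05% of all probe sets. The arrays of the 2 groups did not overlap at 8 of the 17 probe sets, 5 of them higher and 3 lower on soft, against 16.6% of all probe sets (8.06% higher and 8.5% lower). The median difference was 0.07 over the 17 probe sets and 0.01 over all probe sets. At the brightest probe sets the caveolins and CAVIN1 differed by -0.17 to 0.02, whereas CAVIN2 differed by -0.78, CAVIN3 by 0.29 and EHD2 by 0.39. In bulk RNA of this kind, fewer cells with a transcript and less of it per cell cannot be told apart.

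**Figure D1:**
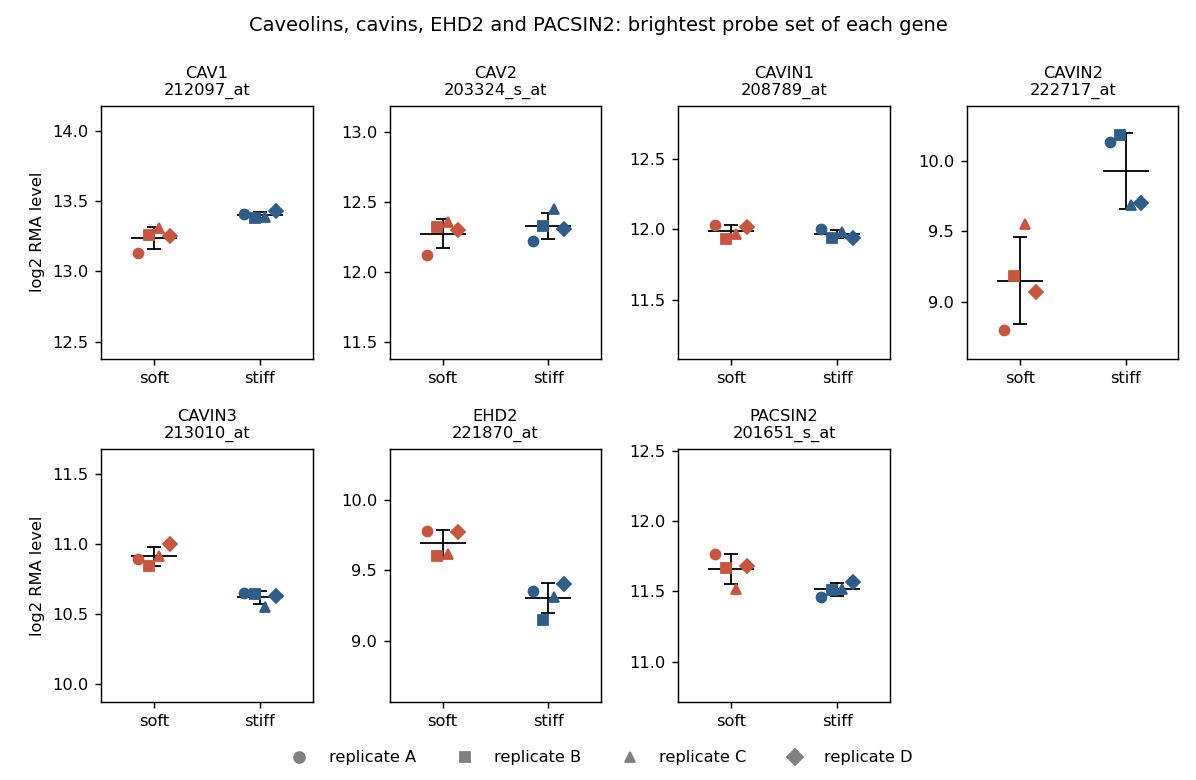
Level (log2 RMA) on each array at the brightest probe set of each of the 7 genes, soft left of stiff, with bars at the group mean ± SD (n = 4 each) and every panel spanning the same height on the log2 scale. CAVIN2 lies lower and CAVIN3 and EHD2 lie higher on all soft arrays, and CAVIN1 overlaps between the groups.

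CAV1, the caveolin without which non-muscle cells form no caveolae, was slightly lower on soft at both of its probe sets, by differences that did not pass the threshold. At 212097_at it read 13.13, 13.26, 13.31 and 13.25 on soft A to D, against 13.41, 13.38, 13.39 and 13.43 on stiff A to D. All soft arrays lay below all stiff arrays, by small amounts. The difference was -0.17 (SE 0.0606, adjusted p = 0.123, limma), with a 95% interval of -0.30 to -0.03. At 203065_s_at CAV1 read 12.94, 12.95, 12.96 and 12.94 on soft arrays, against 13.08, 13.04, 13.06 and 13.03 on stiff arrays. These groups did not overlap either, and the soft arrays lay close together. The difference was -0.11 (SE 0.0539, adjusted p = 0.279). A trended, robust variance model, which called 12.4% of all probe sets, called both (adjusted p = 0.0122 and 0.0436). With dim probe sets left out, 212097_at was called too, at adjusted p = 0.0283 among those above background, of which 32.6% were called, and 0.0437 among those above the median level, of which 24.5% were called. Soft over stiff was 0.892-fold at 212097_at, with a 95% interval of 0.813 to 0.978.

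CAV2, the partner that assembles with CAV1, lies next to it on chromosome 7, with 0 protein-coding genes between them in RefSeq. Its probe sets pointed in different directions. At 203324_s_at, its brightest, CAV2 read 12.12, 12.32, 12.36 and 12.30 on soft arrays, against 12.22, 12.33, 12.45 and 12.31 on stiff arrays. The groups overlapped, with a difference of -0.05 (SE 0.0745, adjusted p = 0.742). At 203323_at it read 11.45, 11.52, 11.53 and 11.46 on soft arrays, against 11.30, 11.38, 11.28 and 11.33 on stiff arrays. Here every soft array was above every stiff array, by 0.17 on average (SE 0.0575, adjusted p = 0.1). The within-array difference between these probe sets changed by -0.22 (SE 0.0687, exact permutation p = 0.0286, adjusted p = 0.114 over 14 pairs of probe sets of 1 gene). This p is the smallest that the arrays allow, and 3 of the 14 pairs reached it, too few for any to pass after adjustment. An adjusted p above the threshold thus does not show that the probe sets of a gene agree, here or below. Rescaling by cyclic loess, where 9.35% of all probe sets were called, brought 203323_at past the threshold (adjusted p = 0.0463). So did the trended, robust model (adjusted p = 0.0184) and testing only above background (0.0183) or the median level (0.0304). The remaining probe set, 213426_s_at, was below background, at 5.63 to 5.96 on soft and 5.73 to 5.87 on stiff arrays.

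A RefSeq promoter window of CAV1 (GRCh38.p14, 250 bases before to 50 after the start) is shown because CAV1 is the scaffold gene and its difference was small, for comparison with those of CAVIN2 and EHD2 below. It is the first of 3 CAV1 windows by position, and 5 of the 7 genes had windows, 13 in all. The windows were searched on both strands for CATTCC (bound by TEAD factors, the DNA partners of YAP and TAZ), TGANTCA (AP-1), GGGCGG (the GC box of SP1) and the CArG box of SRF, with capitals at each match. No 2 matches overlap in the printed windows.
CAV1 promoter, chr7:116524759-116525058, plus strand: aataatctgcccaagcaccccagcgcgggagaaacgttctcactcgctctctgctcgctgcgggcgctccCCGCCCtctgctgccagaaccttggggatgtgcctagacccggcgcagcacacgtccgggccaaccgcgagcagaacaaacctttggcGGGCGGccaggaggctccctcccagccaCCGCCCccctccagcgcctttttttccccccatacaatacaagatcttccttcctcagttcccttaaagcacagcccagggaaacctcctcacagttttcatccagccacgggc
This window holds 3 GC boxes, at -180 to -175, -92 to -87 and -64 to -59 from the start, and no CATTCC, AP-1 or CArG letters. A GC box is found in 44.9% of 34796 promoter windows of this length. A match describes letters only.

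CAVIN1 is the cavin that all caveolae need, and it trimerises with the other cavins. At 208789_at, its brightest probe set, it read 12.03, 11.93, 11.97 and 12.02 on soft arrays, against 12.00, 11.94, 11.98 and 11.94 on stiff arrays. The ranges overlapped almost entirely. The difference was 0.02 (SE 0.0569, adjusted p = 0.865), and its 95% interval of -0.10 to 0.15 bounds the soft over stiff ratio between 0.931-fold and 1.11-fold. At 1557938_s_at CAVIN1 read 10.09 to 10.37 on soft and 10.12 to 10.26 on stiff arrays, a difference of 0.07 (SE 0.076, adjusted p = 0.679). The remaining probe set gave another picture. At 208790_s_at CAVIN1 read 9.24, 8.92, 9.34 and 9.58 on soft arrays, against 8.61, 8.95, 8.89 and 8.64 on stiff arrays. Its suffix _s, which marks probes shared among transcripts, is also carried by 1557938_s_at. Soft B lay below stiff B, so the groups overlapped, while the other soft arrays were above all stiff arrays. The difference was 0.50 (SE 0.13, adjusted p = 0.0363), or 1.41-fold higher on soft. That call was lost without any 1 of soft A, soft C, soft D, stiff A, stiff C or stiff D (adjusted p between 0.0549 and 0.0965). With 1 array fewer, all probe sets were called at 6.2%, 6.55%, 9.3% and 6% without soft A, B, C and D, and at 6.59%, 5.22%, 6.21% and 6.15% without stiff A, B, C and D. The within-array difference between 208789_at and 208790_s_at changed by -0.48 (SE 0.152, exact permutation p = 0.0571, adjusted p = 0.114). Which transcripts either probe set reads was not tested, so no direction is given for CAVIN1 as a gene.

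**Figure D2:**
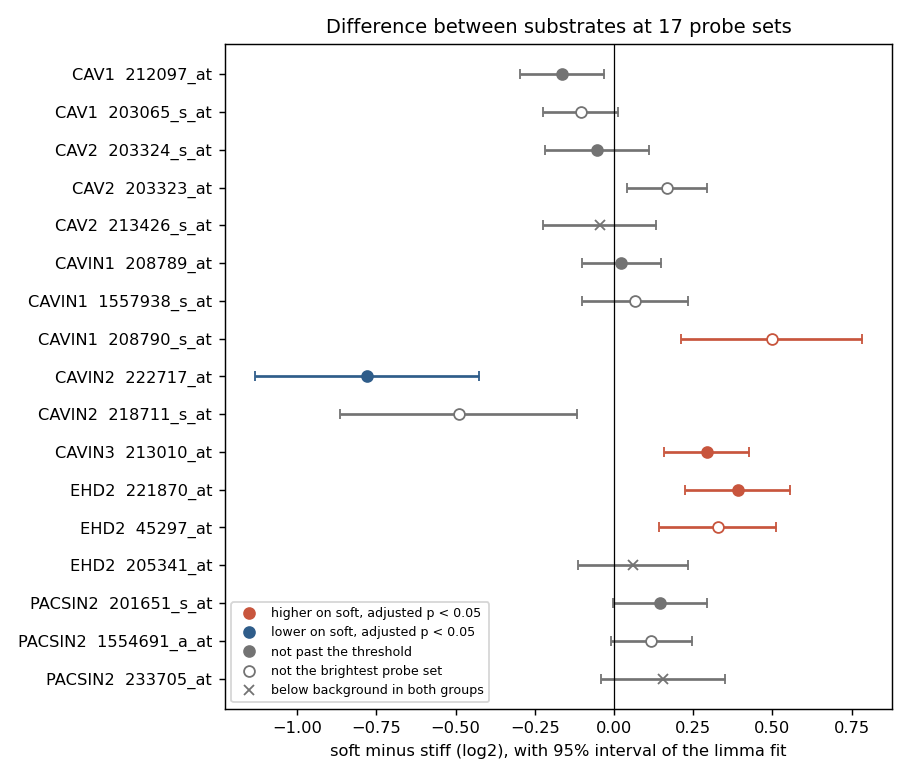
Difference between substrates (soft minus stiff, log2) at all 17 probe sets with the 95% interval of the limma fit, n = 4 arrays each. Colour marks calls at adjusted p under 0.05, filled points the brightest probe set of a gene, crosses probe sets below background. CAVIN2 lies furthest left at -0.78, and CAVIN1 has 1 called probe set beside 2 near 0.

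CAVIN2, a cavin that binds phosphatidylserine and promotes membrane curvature, had the largest difference of the 7 genes and was lower on soft. At 222717_at it read 8.80, 9.18, 9.55 and 9.07 on soft A to D, against 10.14, 10.19, 9.69 and 9.70 on stiff A to D. Every soft array was below every stiff array, and the spread within each group was wide: soft C came close to stiff C and D, and stiff A and B stood above stiff C and D. The soft arrays ran A, D, B, C from low to high here and at CAV1 212097_at, the order in which they lay on the first principal component, and the part of that shared order in these differences was not tested. Means were 9.15 ± 0.31 on soft and 9.93 ± 0.27 on stiff (SD, n = 4 each). The difference was -0.78 (SE 0.161, adjusted p = 0.0129), which puts soft at 58.2% of stiff, with a 95% interval of 0.456-fold to 0.744-fold. The other probe set, 218711_s_at, read 7.41, 7.68, 8.14 and 7.70 on soft arrays, against 8.41, 8.58, 7.95 and 7.95 on stiff arrays. It pointed the same way, but soft C exceeded stiff C and D, and the difference of -0.49 (SE 0.171) was not called (adjusted p = 0.105). The within-array difference between these probe sets changed by -0.29 (SE 0.0435, exact permutation p = 0.0286, adjusted p = 0.114).

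The size of the CAVIN2 difference followed which stiff arrays were used. Against stiff A and B alone it was -1.01 at 222717_at (SE 0.172, adjusted p = 0.0151) and -0.76 at 218711_s_at (SE 0.171, adjusted p = 0.0409), in a fit that called 4.87% of all probe sets. With stiff C and D alone it was -0.54 at 222717_at (SE 0.172, adjusted p = 0.12) and -0.22 at 218711_s_at (SE 0.168, adjusted p = 0.534), in a fit that called 4.01%. The direction was the same in both. At 222717_at the call held without each single array (adjusted p between 0.00542 and 0.0422), and without soft C 218711_s_at was called too, at -0.63 (adjusted p = 0.0354).

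**Figure D3:**
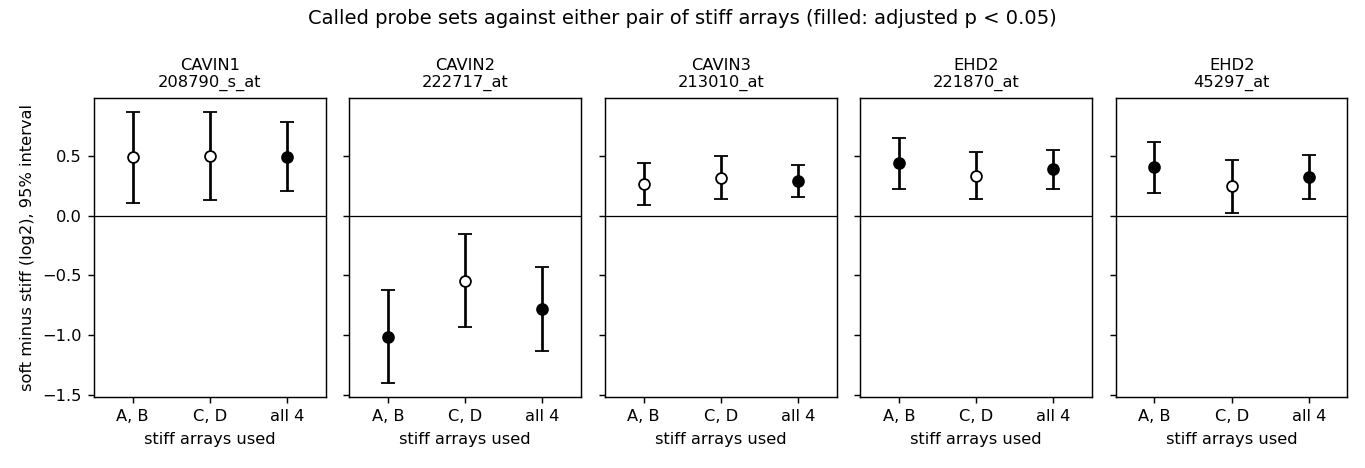
Soft minus stiff difference (log2, with 95% interval) of the 5 called probe sets, with stiff A and B, stiff C and D, or all 4 stiff arrays against the 4 soft arrays. Filled points pass adjusted p under 0.05. The CAVIN2 difference is -1.01 against A and B and -0.54 against C and D, and no probe set passes against C and D.

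The promoter window of CAVIN2 is printed because it is the member that fell.
CAVIN2 promoter, chr2:191847039-191847338, minus strand: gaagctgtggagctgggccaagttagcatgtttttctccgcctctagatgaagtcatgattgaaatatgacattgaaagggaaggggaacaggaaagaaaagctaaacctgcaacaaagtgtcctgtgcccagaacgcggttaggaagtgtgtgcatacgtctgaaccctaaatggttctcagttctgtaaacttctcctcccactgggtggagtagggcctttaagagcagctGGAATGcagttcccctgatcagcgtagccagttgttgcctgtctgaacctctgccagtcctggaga
The capitals mark GGAATG, the CATTCC letters read on the other strand, at -16 to -11 from the start. CATTCC is found on either strand in 14.0% of all windows. Some windows of PACSIN2, a gene that was not called, hold CATTCC letters too. The CAVIN2 window holds no GC box, AP-1 or CArG letters, and its GC content is 49.3%, against 62.3% for the CAV1 window above.

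CAVIN3, the cavin first described as a binding partner of protein kinase C delta, is read by 1 probe set, 213010_at, and was higher on soft. It read 10.89, 10.84, 10.91 and 11.00 on soft arrays, against 10.65, 10.64, 10.55 and 10.63 on stiff arrays. All soft arrays were above all stiff arrays and both groups were tight. Means were 10.91 ± 0.07 on soft and 10.62 ± 0.05 on stiff (SD, n = 4 each), a difference of 0.29 (SE 0.0609, adjusted p = 0.0135), or 1.22-fold. With stiff A and B alone the CAVIN3 difference was 0.27 (adjusted p = 0.096), and with stiff C and D alone 0.32 (adjusted p = 0.0617), so neither smaller fit called it. It passed without each single array (adjusted p between 0.0226 and 0.0419). Its partner kinase PRKCD was at 6.99 on soft and 7.10 on stiff (difference -0.12, SE 0.0718, adjusted p = 0.375), close to the background level of 6.91.

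EHD2 had the smallest adjusted p of the 7 genes and was higher on soft. At 221870_at it read 9.78, 9.60, 9.62 and 9.77 on soft arrays, against 9.35, 9.15, 9.31 and 9.40 on stiff arrays. All soft arrays were above all stiff arrays. The difference was 0.39 (SE 0.075, adjusted p = 0.00956), or 1.31-fold, with a 95% interval of 1.17-fold to 1.47-fold. At 45297_at EHD2 read 9.19, 9.04, 9.11 and 9.29 on soft arrays, against 8.83, 8.67, 8.81 and 9.01 on stiff arrays. The groups again did not overlap, with soft B just above stiff D, and the difference was 0.33 (SE 0.0837, adjusted p = 0.0332). These probe sets changed by amounts that differed by 0.06 (SE 0.0378, exact permutation p = 0.2, adjusted p = 0.311). The remaining one, 205341_at, was below background in both groups, at 6.35 to 6.65 on soft and 6.33 to 6.46 on stiff arrays (difference 0.06, adjusted p = 0.717). With stiff A and B alone 221870_at differed by 0.44 (adjusted p = 0.0345), and with stiff C and D alone by 0.34 (adjusted p = 0.0699). At 45297_at the call was lost without any 1 of soft A, soft D, stiff A, stiff B or stiff C (adjusted p between 0.0697 and 0.0952).

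The promoter window of EHD2 is printed because both of its probe sets above background rose.
EHD2 promoter, chr19:47713172-47713471, plus strand: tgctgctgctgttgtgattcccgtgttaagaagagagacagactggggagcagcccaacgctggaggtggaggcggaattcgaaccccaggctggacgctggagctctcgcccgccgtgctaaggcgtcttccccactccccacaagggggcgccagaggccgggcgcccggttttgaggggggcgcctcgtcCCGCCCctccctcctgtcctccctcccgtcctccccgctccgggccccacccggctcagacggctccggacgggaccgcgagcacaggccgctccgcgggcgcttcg
The capitals mark 1 GC box on the other strand at -57 to -52 from the start. The window holds no CATTCC, AP-1 or CArG letters, and its GC content is 71.0%.

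PACSIN2 did not pass the threshold at any of 3 probe sets, although each pointed up on soft. At 201651_s_at it read 11.77, 11.67, 11.52 and 11.68 on soft arrays, against 11.46, 11.51, 11.52 and 11.57 on stiff arrays. Soft C sat within the stiff range and the other soft arrays were above it. The difference was 0.15 (SE 0.0674, adjusted p = 0.227), with a 95% interval of -0.003 to 0.29. At 1554691_a_at PACSIN2 read 8.15, 8.19, 8.11 and 8.15 on soft arrays, against 8.03, 8.05, 8.09 and 7.96 on stiff arrays. The groups did not overlap, and the difference was 0.12 (SE 0.058, adjusted p = 0.258). The third probe set, 233705_at, lay below background, at 3.92 to 4.30 on soft and 3.86 to 4.07 on stiff arrays.

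**Figure D4:**
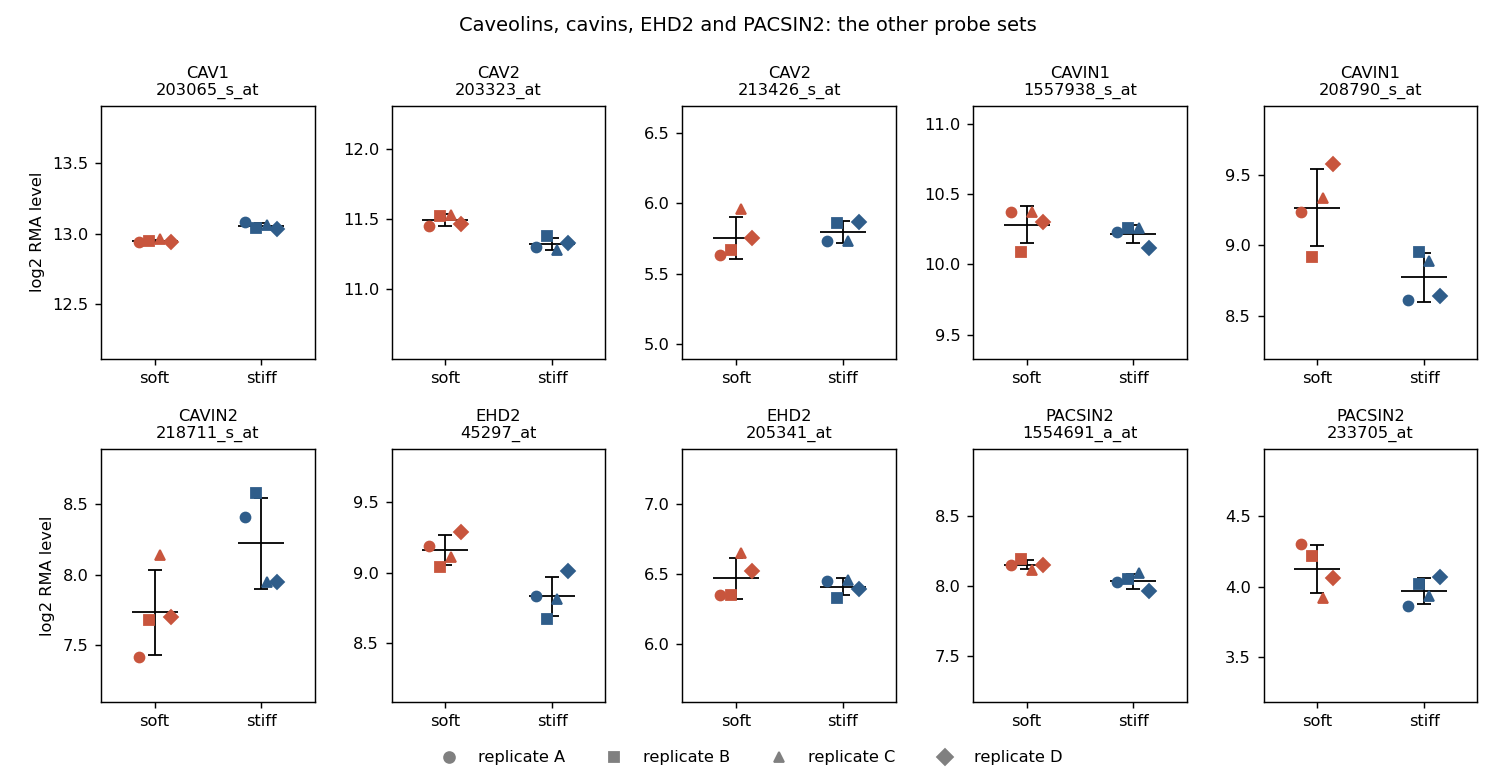
Level (log2 RMA) on each array at the 10 probe sets that are not the brightest of their gene, soft left of stiff, with bars at the group mean ± SD (n = 4 each). 208790_s_at of CAVIN1 is higher on 3 of 4 soft arrays than on any stiff array, and soft C is the array of 218711_s_at of CAVIN2 that lies above stiff C and D.

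The changes of the 7 genes were also compared with each other. For each of 21 pairs of genes, the within-array difference of their brightest probe sets was compared between the groups by a two-sided exact permutation test, for which 4 arrays against 4 allow no p below 0.0286. At that smallest p were 15 pairs (adjusted p = 0.04 over the 21). All soft arrays lay below all stiff arrays at CAV1 and CAVIN2, and above them at CAVIN3 and EHD2. For a pair with a gene from each side, the smallest p was fixed beforehand. Such pairs add nothing to the results of the single genes, yet they count towards the adjusted p of all. CAVIN2 was at the smallest p with each of the other 6 genes, but with EHD2 and CAVIN3 this was fixed beforehand. The change of CAVIN2 lay -1.17 from that of EHD2 (SE 0.261), -1.07 from that of CAVIN3 (SE 0.201) and -0.93 from that of PACSIN2 (SE 0.257). The change of CAVIN1 lay 0.80 above that of CAVIN2 (SE 0.217), that of CAV2 0.73 above (SE 0.203) and that of CAV1 0.62 above (SE 0.186). CAVIN3 and EHD2 were not told apart (-0.10, SE 0.0714, exact permutation p = 0.286, adjusted p = 0.3), nor CAV1 and CAV2 (-0.11, SE 0.0557, exact permutation p = 0.143, adjusted p = 0.158). CAV1 differed from CAVIN1 by -0.19 (SE 0.0589), with the smallest p. With 1 array left out, the number of pairs past the adjusted threshold was 0 without soft A, soft D or any 1 of the stiff arrays, and 14 without soft B or soft C, since so small a design needs most pairs at its smallest p.

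Paralogs of these genes were not called at their brightest probe sets: 0 of 7 passed, where limma called 10.3% of all genes. At an unadjusted p under 0.05 there were also 0 of 7, beside 25% of all genes. The muscle forms CAV3 (difference 0.05) and CAVIN4 (0.03) were below background, as were EHD3 (0.04) and PACSIN1 (0.13). EHD1, an endocytic recycling protein, differed by -0.0025 (SE 0.0692, adjusted p = 0.989) and EHD4 by -0.0025 (SE 0.0635, adjusted p = 0.989), while PACSIN3 differed by -0.12 (SE 0.0635, adjusted p = 0.284). Another EHD4 probe set, 237097_at, fell by 0.37 (SE 0.0568, adjusted p = 0.00333), with means of 7.14 on soft and 7.51 on stiff, and it is 1 of 7 EHD4 probe sets.

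Among 11 measured partners and regulators of caveolae, 1 was higher on soft, none lower and 10 not called, a share of 9.09% beside 10.3% of all genes. It was PRKCA, protein kinase C alpha, a kinase that binds cavins at caveolae. PRKCA read 11.54, 11.67, 11.55 and 11.62 on soft arrays, against 11.27, 11.29, 11.24 and 11.34 on stiff arrays at 213093_at. The groups did not overlap, and the difference was 0.31 (SE 0.0597, adjusted p = 0.00965), and 1 of 5 PRKCA probe sets was called. INSR, the insulin receptor, which resides in caveolae of fat cells, differed by 0.07 at its brightest probe set (adjusted p = 0.616) and was higher by 0.47 at 226216_at (SE 0.0655, adjusted p = 0.00189), 1 of 5. ROR1, a receptor that scaffolds cavin and caveolin, differed by -0.19 (adjusted p = 0.273), the membrane scission GTPase DNM2 by 0.18 (adjusted p = 0.106) and the caveolin kinase SRC by 0.01 (adjusted p = 0.944). The median over the 11 was 0.07. At an unadjusted limma p under 0.05 there were 4 of the 11, beside 25% of all genes.

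Other membrane-shaping proteins were read the same way, again beside 10.3% of all genes called (4.39% higher) and 25% at an unadjusted p under 0.05. Of 5 flotillins and stomatins, of which the flotillins mark lipid domains apart from caveolae, 0 were called by limma. At an unadjusted p under 0.05 there was 1, STOML2, and the median was 0.02. Of 11 clathrin coat genes 0 were called (3 at an unadjusted p under 0.05), with a median of 0.07. CLTC, the clathrin heavy chain, differed by 0.08 (adjusted p = 0.429) and CLTA, a light chain, by 0.07 (adjusted p = 0.527). Of 10 BAR and F-BAR proteins, which bend membranes as PACSIN2 does, 2 were higher, none lower and 8 not called. That is a share of 20% in a list this short, with 4 at an unadjusted p under 0.05 and a median of 0.10. SNX9, a sorting nexin that works with dynamin in endocytosis, read 9.35, 9.09, 9.15 and 9.23 on soft arrays, against 8.48, 8.40, 8.30 and 8.58 on stiff arrays. The groups were well apart, by 0.77 (SE 0.0802, adjusted p = 0.000458), and both SNX9 probe sets were called. BIN1, the amphiphysin that shapes tubules, read 8.60, 8.47, 8.45 and 8.61 on soft arrays, against 8.18, 8.12, 8.09 and 8.16 on stiff arrays. The groups did not overlap, the difference was 0.40 (SE 0.0632, adjusted p = 0.00397), and all 5 BIN1 probe sets were called higher. Of these, 4 carry the suffix _x and 1 the suffix _s, and whether they share probes with each other was not tested.

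**Figure D5:**
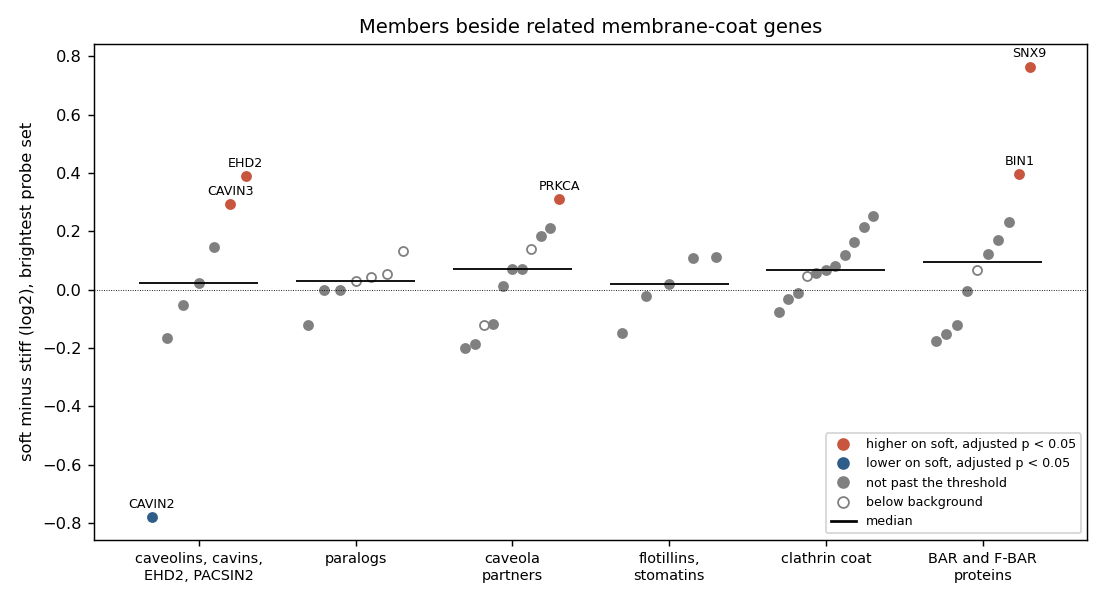
Soft minus stiff difference (log2) at the brightest probe set of each of the 7 genes and of each measured gene of 5 related lists, with the median of each list as a line and open circles for genes below background. CAVIN2 at -0.78 is the 1 gene called lower, and SNX9 at 0.77 has the largest rise.

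Other genes on the array shared the pattern of CAV1 over the 8 arrays closely. Among 9983 genes above background in either group, the highest Pearson correlations with CAV1 at 212097_at were those of CDC23 (0.993), EZH2 (0.991) and MAGOHB (0.990). All 3 rank the soft arrays with A lowest and C highest, as CAV1 does. CDC23 differed by -0.17 (adjusted p = 0.115), EZH2 by -0.36 (adjusted p = 0.0297) and MAGOHB by -0.37 (adjusted p = 0.0187). For EHD2 at 221870_at the closest were SLC25A36 (0.989), VAT1 (0.988) and DUSP18 (0.985), which differed by 0.21 (adjusted p = 0.0526), 0.51 (adjusted p = 0.00446) and 0.52 (adjusted p = 0.0147). DUSP18 lay above background only on soft, with means of 7.10 on soft and 6.58 on stiff. Genes picked for matching CAV1 or EHD2 share the gap between the groups by that choice, so their differences are not separate results. These correlations over 8 arrays of 2 groups describe both the gap between the groups and the order within them, and the arrays share scaling.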

How the data were processed

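Total RNA of MDA-MB-231 cells was hybridised to Affymetrix arrays, 1 per replicate. The deposited values are log2 levels per probe set and array, which the authors made with RMA, per the submitters' processing notes. The log2 scale was read from the values, and the software and version used for RMA are not given in the sources used here. RMA forces all arrays to 1 distribution, so a shift shared by all genes would not show, and small readings understate fold changes. After 62 control probe sets were left out, 54613 remained, of which 41091 had 1 symbol in GEO's platform annotation, 1801 several and 11721 none.

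Soft and stiff were compared with limma 3.58.1 in R 4.3.3 (lmFit and eBayes, two-sided, Benjamini-Hochberg over 54613 probe sets, threshold 0.05). The brightest probe set of a gene is the one whose mean over the 8 arrays is highest. The background level is the 95th percentile of 14 genes silent in breast cells. The precision is limited by the number of arrays. What separated the biological replicates is not stated, and p-values then reflect only how these samples vary, which may be technical.

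The members and lists were chosen with earlier results of these data known. Named are the 7 members and 7 paralogs whatever their result, members of 4 further lists that passed the threshold, and the 3 genes most like CAV1 and EHD2. Further genes of these lists (INSR, PRKCD, ROR1, DNM2, SRC, CLTC, CLTA and STOML2) and the markers PECAM1 and AXL were named after their values were seen. The fit was tried on simulated data with independent noise at each probe set. Such data lack the order that the real arrays share within a group, so false calls from that order were not tested. Promoter sequences are from RefSeq, GRCh38.p14.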

Additional observations from a re-analysis of the deposited data

How the results depend on the processing

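Of 310 recomputed differences of single probe sets, 279 kept their direction and their side of the threshold, 1 came to 0 (CAV2 at 203324_s_at, with stiff A and B alone), 19 lost the call, 10 gained it and 1 turned its sign: EHD2 at 205341_at, below background and never called, ran between -0.00083 (without soft C) and 0.0992 with 1 array left out. Probe sets that were not called and stayed so count among the 279, and only the 5 called ones could lose a call. CAVIN1 at 208790_s_at lost it in 9 of 18 settings, EHD2 at 45297_at in 6 of 19 and CAVIN3 in 2 of 19. CAVIN2 at 222717_at and EHD2 at 221870_at lost it in 1 of 19 each. The median difference of all probe sets lay between -0.0075 and 0.0125 under the scalings tried. With the replicate letter as a replicate block, 3937 probe sets were called in place of 5061, or 7.21% (4 of 17 for the caveola genes, all 3 brightest calls included); CAVIN1 at 208790_s_at was the call lost (adjusted p = 0.0688). Deviations of same-letter arrays correlated at 0.122, -0.118, 0.0516 and -0.0447, and 1 of 4 soft arrays matched its own letter best, so the letters were not taken as pairs.

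The trended, robust model called 8 of the 17, where it called 12.4% of all probe sets. At adjusted p under 0.01, 1 of 17 probe sets (EHD2 at 221870_at) passed, with 1663 probe sets (3.05%) in all, and at 0.1 there were 7599. Against stiff C and D alone 0 of 17 probe sets and 0 of 7 genes passed, beside 4.01% of all probe sets (2188) and 4.22% of all genes. At an unadjusted p under 0.05 there were 6 and 3, beside 19.9% of all probe sets and 21.5% of all genes. Against stiff A and B alone 2659 were called in all. Probe sets without shared probes gave 2822, among fewer tested. Leaving out 1 array gave 2851 to 5080 calls over all probe sets, 3 to 5 among the 17, and 0 to 14 pairs of genes past the adjusted threshold (these were added after seeing the data). The 3 genes called at the brightest probe set were called without each array. Apart from the fewer arrays or probe sets tested in some settings, the cause was not tested.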
